A study of Citrullus lanatus with 6 samples.

Results

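The 9 genes described here are named for enzymes that make ornithine, carbamoyl phosphate, citrulline and arginine, apart from ArgD. ArgD is named for arginine decarboxylase, which uses arginine, and its place in the pathway is unsure. The 9 were taken by identifier, as genes that the study names for this pathway, 8 of them in its qRT-PCR primer list and ArgJ in its text. The study named them with the expression in these same libraries known, and ArgJ for its direction in them, so their directions, and the ratios built on them, are not independent evidence. All 9 are rows of the table, which holds 23568 genes, and all 9 were among the 16638 genes tested. The plants were seedlings of the watermelon cultivar Crimson Sweet, 6 weeks old and lifted from a soilless medium. Their roots stood for 7 h in 300 mM NaCl (salt) or in water (control), and leaf RNA from 3 separate plants per treatment was sequenced. Another label calls the treated libraries drought-stressed, but their protocol and the series title name salt, and salt is the name used here.

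Plants make ornithine in the plastid from glutamate, through intermediates that carry an acetyl group. Acetylornithine aminotransferase makes acetylornithine, and the acetyl group then leaves either by hydrolysis, through acetylornithine deacetylase, or by transfer back to glutamate, through an enzyme of the ArgJ type, so that the acetyl group is used again. Ornithine carbamoyltransferase joins ornithine with carbamoyl phosphate to give citrulline. Argininosuccinate synthase and argininosuccinate lyase turn citrulline into arginine, which is a source of polyamines. Citrulline was first found in watermelon, whose leaves are known to accumulate it in drought.

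Expression was measured as FPKM, the fragments of a gene scaled by the length of the gene and by the size of the library, so that levels can be compared between genes. The libraries held 18838185 to 21258223 fragments, and whole fragments could be recovered for every member. The 9 genes had 24 to 72652 fragments in a library, and counting error was 0.371% to 20.4% of a value. The spread between plants was mostly far wider, with a coefficient of variation of 8.46% to 81.4% over the salt libraries and 1.60% to 114% over the control libraries. The 15 photosystem genes checked as leaf markers were above 0 in every library, with summed levels of 476 to 1999.6 FPKM in salt and 5758 to 10341 FPKM in control libraries. All 15 fell in salt (14 after the scaling described next), in a list that the study drew from the same libraries. In bulk leaf tissue, fewer cells of a type and less RNA per cell cannot be told apart. The median change over all tested genes was -0.57 on the log2 scale in the FPKM values, and -0.05 after each library was scaled by its median ratio to a common reference, so changes are given on both scales.

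In salt, 2 of the 9 genes rose, AOD2 and ASS1, and 4 fell, ArgJ, CPS1, CPS2 and ASL1, at an adjusted p below 0.05 from limma. AAT, OTC and ArgD did not pass. Over all genes tested, 13.6% rose and 34.2% fell, and the members' shares were 22.2% and 44.4%. Nothing particular to the pathway is read from these shares. After median-ratio scaling 2 members rose and 2 fell (ArgJ and CPS2), where 22.4% of all genes rose and 20.9% fell. The median log2 fold change was -0.99 over the 9 genes as deposited and -0.41 after that scaling.

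**Figure D1:**
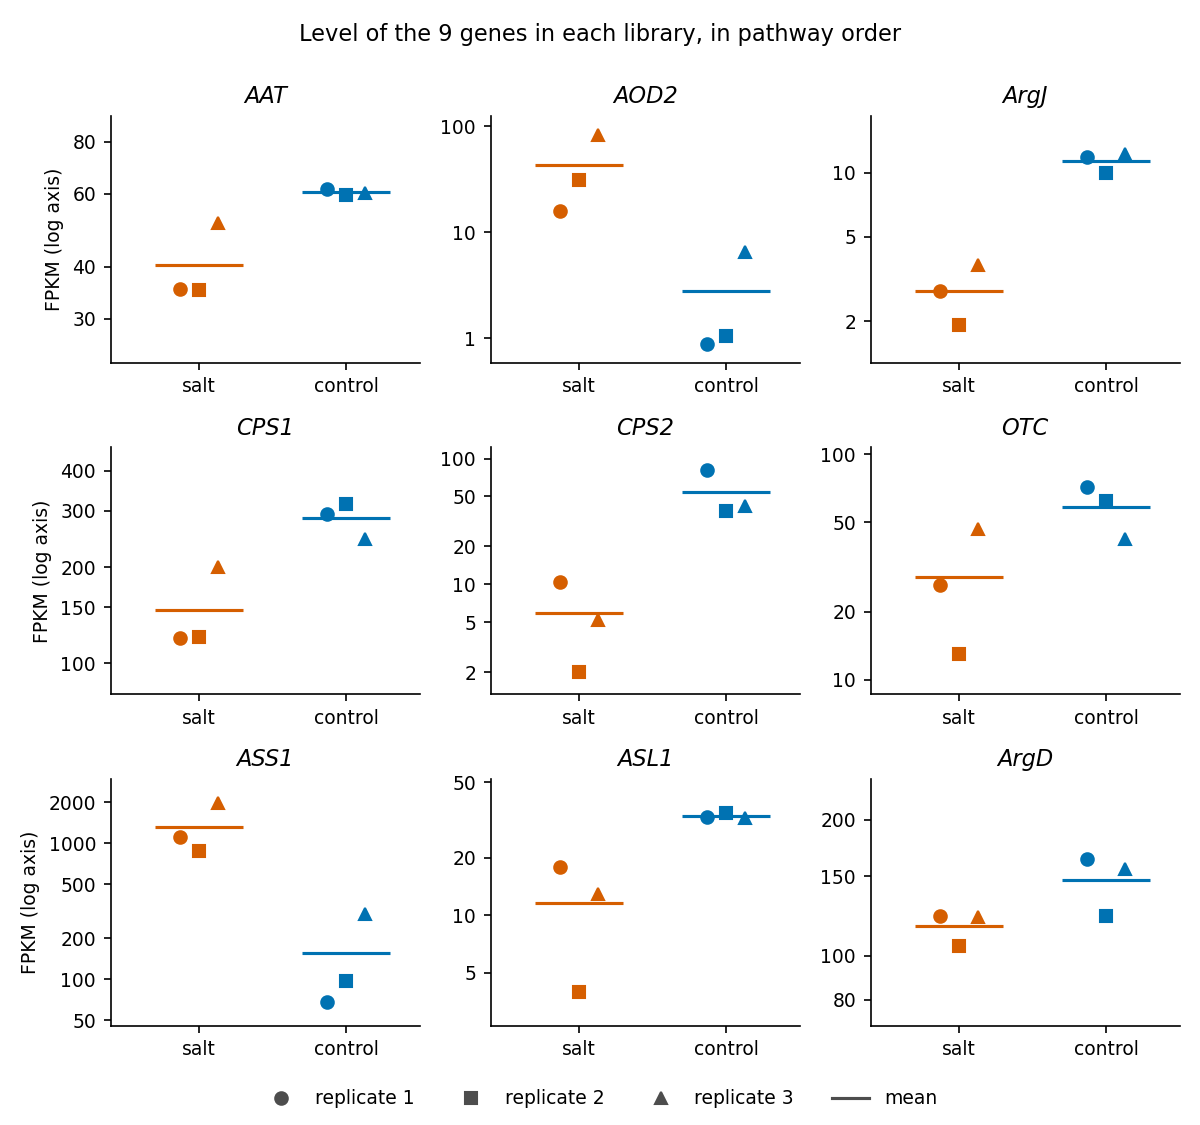
FPKM of the 9 genes in each library, in pathway order, with salt on the left and control on the right of each panel. The y axes are logarithmic and differ between panels, symbols mark the replicate number and lines the mean of 3 libraries. ASS1 lay at 883 to 1977 FPKM in salt and at 68.3 to 302 FPKM in control. In these values as deposited, OTC is the panel in which the treatments overlap.

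The qRT-PCR primers of 4 of these transcripts are shown to tie the names to sequences. They are those of both genes that rose, and of CPS1 and CPS2, which carry the same enzyme name. Each is written 5′ to 3′ in lower case, with no part marked.
AOD2 forward: ttgtctccttcgttggaagtc
AOD2 reverse: gtcccacgacctcttagtttatc
ASS1 forward: caggaggaaccatcctattcac
ASS1 reverse: acaccagctcggcatattt
CPS1 forward: gggtacagttcagagacctttc
CPS1 reverse: ctgatgcagcccatgtagaa
CPS2 forward: atttgaggaggatggctcttg
CPS2 reverse: ctcgccttcaggctctttatt

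The genes of ornithine synthesis went in different directions. AAT (ClCG09G003180) is given only as N-acetylornithine in the text of the study, and is taken here as the acetylornithine aminotransferase. It had 35.3, 35.2 and 50.9 FPKM in salt libraries, against 61.5, 59.6 and 60.1 FPKM in control libraries. The control plants were nearly alike, and all 3 salt plants lay below them. Its log2 fold change was -0.59 (95% interval -1.12 to -0.06, adjusted p = 0.0628 from limma), almost the median of all genes, and it was -0.02 (-0.56 to 0.53) after median-ratio scaling. Among the tested genes of its own library, AAT ranked at the percentiles 79.5 to 86.4 in salt and 85.3 to 86.2 in control.

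AOD2 (ClCG09G012030), the acetylornithine deacetylase that frees ornithine by hydrolysis, had the largest rise of the 9. It had 16.0, 30.7 and 82.9 FPKM in salt libraries, against 0.881, 1.04 and 6.51 FPKM in control libraries. Every salt plant was above every control plant, and replicate 3 was the highest of both treatments. Its log2 fold change was 3.83 (standard error 0.765, adjusted p = 0.00572 from limma), or 14.2-fold, and 4.33 (adjusted p = 0.00363) after median-ratio scaling. Folds are on log2(FPKM + 0.5) and come out too small for weak genes such as this one in control leaves. In control replicates 1 and 2 the value rests on 24 and 29 fragments, with exact Poisson 95% intervals of 0.565 to 1.31 FPKM and 0.696 to 1.49 FPKM that cover counting error only. Control replicate 3, at 161 fragments and 5.54 to 7.60 FPKM, lay outside both. AOD2 moved to the percentiles 61.1 to 91.6 of its library in salt, against 9.51 to 31.1 in control. Without control replicate 3 the log2 fold change was 4.59, and without salt replicate 3 it was 3.20.

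ArgJ (ClCG10G020940), the bifunctional enzyme of the route that recycles the acetyl group, fell. It had 2.78, 1.92 and 3.66 FPKM in salt libraries, against 11.9, 9.90 and 12.3 FPKM in control libraries. The treatments were well apart, with less spread between plants than AOD2 had. The change of ArgJ on the log2 scale was -1.88 (standard error 0.333, adjusted p = 0.00365 from limma) as deposited, and -1.35 (adjusted p = 0.00867) after median-ratio scaling. ArgJ was the lowest of the 9 genes in salt, and AOD2 the lowest in control. The ratio of AOD2 to ArgJ within a library, which does not depend on scaling between libraries, was 5.74, 16.0 and 22.6 in salt, against 0.0743, 0.105 and 0.530 in control. AOD2 thus had the higher FPKM of the pair in every salt library, and ArgJ in every control library.

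Carbamoyl phosphate synthase makes carbamoyl phosphate for citrulline and for pyrimidines, and in plants consists of a small subunit that takes nitrogen from glutamine and a large subunit that forms the product. The gene lengths behind the FPKM values were 1729 bases for CPS1 (ClCG11G013120) and 3935 bases for CPS2 (ClCG09G021680), and the sources used here do not say which subunit each codes for. CPS2 had the largest fall of the 9. It had 10.4, 2.00 and 5.17 FPKM in salt libraries, against 81.8, 38.2 and 41.7 FPKM in control libraries. The highest salt plant was far below the lowest control plant. For CPS2 the log2 fold change was -3.25 (standard error 0.546, adjusted p = 0.00297 from limma) and was -2.71 (adjusted p = 0.00425) after median-ratio scaling. CPS2 ranked at the percentiles 27.0 to 50.5 of its library in salt, against 77.3 to 89.8 in control.

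CPS1 had 120.3, 121 and 199.6 FPKM in salt libraries, against 293, 315 and 246 FPKM in control libraries. It was the most abundant of the 9 genes in the mean of the control libraries, and all 3 salt plants were below the control plants. As deposited, CPS1 changed by -0.99 on the log2 scale (standard error 0.280, adjusted p = 0.0216 from limma), but it was -0.41 (95% interval -1.08 to 0.27, adjusted p = 0.290) after median-ratio scaling. The adjusted p was also above 0.05 without salt replicate 1 or 2 (0.0668 and 0.0512) and without control replicate 1 or 2 (0.0653 and 0.0768). The ratio of CPS2 to CPS1 within a library was 0.0867, 0.0165 and 0.0259 in salt, against 0.279, 0.121 and 0.170 in control, so that CPS2 was lower relative to CPS1 in every salt library than in any control library.

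OTC (ClCG05G018820), the ornithine carbamoyltransferase that forms citrulline, had 26.3, 12.9 and 46.5 FPKM in salt libraries, against 71.4, 61.7 and 42.1 FPKM in control libraries. In the FPKM as deposited it was the only member whose treatments overlapped, since salt replicate 3 was above control replicate 3. OTC had a log2 fold change of -1.16 (95% interval -2.20 to -0.13, adjusted p = 0.0621 from limma), and -0.59 (-1.52 to 0.34) after median-ratio scaling. Without salt replicate 3 the adjusted p was 0.0180, with a log2 fold change of -1.60. OTC relative to CPS1 was 0.219, 0.107 and 0.233 in salt and 0.243, 0.196 and 0.171 in control. These ratios overlapped, with a difference of -0.18 on the log2 scale (exact permutation p = 0.8), which turned to 0.17 without salt replicate 2.

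ASS1 (ClCG06G017780), the argininosuccinate synthase that consumes citrulline, was the most abundant of the 9 genes in salt. It had 1116, 883 and 1977 FPKM in salt libraries, against 68.3, 96.3 and 302 FPKM in control libraries. The salt plants were all higher, and control replicate 3 was the control plant nearest to them, as for AOD2. The log2 fold change was 3.31 (standard error 0.569, adjusted p = 0.00325 from limma), or 9.89-fold, and 3.89 (adjusted p = 0.00161) after median-ratio scaling. ASS1 ranked at the percentiles 99.3 to 99.8 of the tested genes in salt libraries, against 87.8, 91.3 and 98.1 in control libraries. Without control replicate 3 its log2 fold change was 3.94, and without control replicate 1 it was 2.87.

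ASL1 (ClCG08G011660), the argininosuccinate lyase that releases arginine in the next step, went the other way from ASS1. It had 17.8, 3.94 and 13.0 FPKM in salt libraries, against 32.7, 34.7 and 32.4 FPKM in control libraries. The control plants were nearly alike. Salt replicate 2 was the lowest salt library as deposited, as it was for the other members apart from AOD2 and CPS1. For AAT the margin was within counting error. Salt replicate 2 also had the lowest median ratio to the common reference, 0.693, against 0.955 and 0.881 in salt replicates 1 and 3. The order of the salt libraries after median-ratio scaling was not computed. Salt replicate 2 had the lowest summed level of the 15 leaf markers too, 476 FPKM, against 1999.6 and 1561 FPKM in salt replicates 1 and 3. The part of either in the values of these genes was not tested. The log2 fold change of ASL1 was -1.71 (standard error 0.490, adjusted p = 0.0226 from limma), and -1.10 (adjusted p = 0.0111) without salt replicate 2. After median-ratio scaling it was -1.15, at an adjusted p of 0.0527, and without control replicate 1, 2 or 3 the adjusted p was 0.0600, 0.0704 and 0.0530.

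ArgD (ClCG11G003830) is named arginine decarboxylase in the primer list of the study, an enzyme that uses arginine for polyamines. In bacteria the same symbol stands for acetylornithine aminotransferase, and another watermelon gene is also given as arginine decarboxylase. The place of ArgD in the pathway is therefore unsure. It had 122, 105 and 122 FPKM in salt libraries, against 164, 123 and 155 FPKM in control libraries. The highest salt and the lowest control library differed by less than 1 unit, and no other member had so small a change as deposited. ArgD had a log2 fold change of -0.33 (95% interval -0.85 to 0.19, adjusted p = 0.247 from limma) as deposited, which turned to 0.25 (-0.28 to 0.78, adjusted p = 0.407) after median-ratio scaling.

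**Figure D2:**
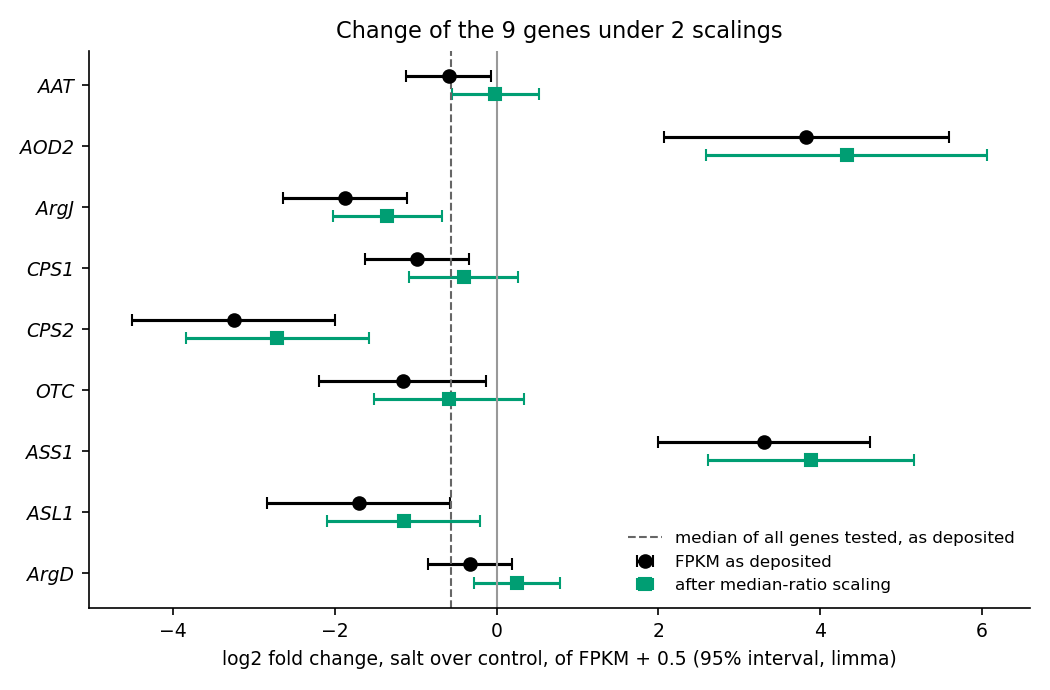
Log2 fold change of salt over control for each gene with its 95% interval from limma, from the FPKM as deposited (black circles) and after median-ratio scaling (green squares); the dashed line is the median of all genes tested as deposited, -0.57. AOD2 and ASS1 lie to the right of 0 and ArgJ and CPS2 to the left on both scales, while the intervals of AAT, CPS1, OTC and ArgD reach across 0 after scaling.

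In the FPKM as deposited, all salt libraries were above all control libraries in 2 of the 9 genes and below them in 6. Of all genes tested, 17.7% and 43.4% had such values. Overlap after median-ratio scaling was not computed. In the means of the salt libraries the order of levels was ASS1, CPS1, ArgD, AOD2, AAT, OTC, ASL1, CPS2 and ArgJ. ASS1 lay apart from all others, while CPS1 and ArgD overlapped, and every other pair of neighbours from AOD2 to ArgJ overlapped too. In control libraries the order was CPS1, ASS1, ArgD, AAT, OTC, CPS2, ASL1, ArgJ and AOD2. There CPS1 overlapped with ASS1, ASS1 with ArgD, and AAT, OTC and CPS2 with each other, whereas ASL1, ArgJ and AOD2 were each apart from their neighbours.

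The makeup of the 9 transcripts differed between the treatments. ASS1 made up 76.0%, 73.9% and 79.1% of their summed FPKM in salt libraries, against 8.69%, 13.0% and 33.6% in control libraries. CPS1 held 8.20%, 10.1% and 7.98% in salt, against 37.3%, 42.7% and 27.4% in control. The sum over the 9 genes was 1467, 1196 and 2500.3 FPKM in salt and 786, 739.6 and 898 FPKM in control. Without ASS1 the sum over the other 8 genes was 351, 313 and 524 FPKM in salt, against 718, 643 and 596 FPKM in control, so the larger sum in salt came from that 1 gene.

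**Figure D3:**
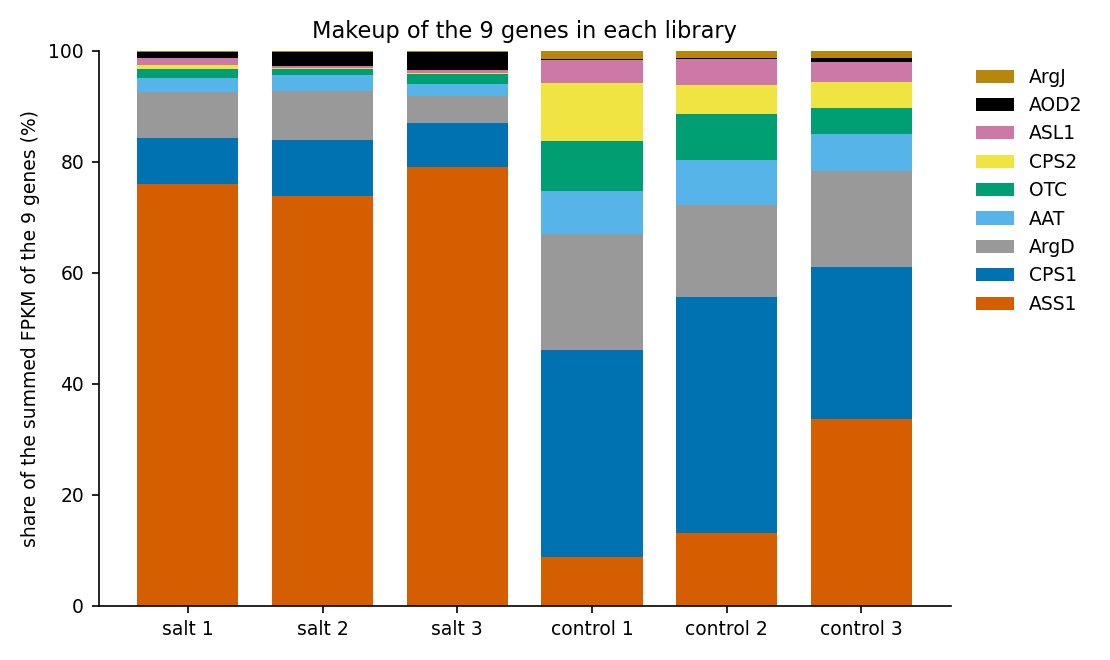
Share of each gene in the summed FPKM of the 9 genes, in percent, 1 bar per library, with salt on the left. ASS1 (bottom segment) fills 73.9% to 79.1% of the salt bars and 8.69% to 33.6% of the control bars.

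Genes of the same step or of neighbouring steps were then set against each other within a library. No scaling of whole libraries alters the plain FPKM ratios. The tests used log2 ratios of FPKM + 0.5, which do depend on scaling through the added 0.5. Of the 7 ratios computed, 6 had no overlap between treatments, and OTC over CPS1 was the exception. For AOD2 over ArgJ, AOD2 over AAT and ASS1 over ASL1 this follows from the single genes. In each, the first gene was higher and the second lower, as deposited, in every salt library than in any control library. Of all genes tested, 17.7% lay above and 43.4% below in this way. The share among other pairs of genes was not computed, so nothing particular to the pathway is read from this count. An exact permutation test of each ratio gave p = 0.1 for the 6 without overlap, the smallest that 3 libraries against 3 allow. After adjustment over the 7 it was 0.117. An exact test of the differences between libraries of the same replicate number gave p = 0.25 for each of the 6. That is the smallest p that 3 pairs allow, and it is fixed wherever the treatments do not overlap. On the log2(FPKM + 0.5) scale, AOD2 over AAT was higher in salt by 4.42, with means of -0.21 ± 0.91 in salt and -4.63 ± 1.32 in control (SD, n = 3 libraries each, exact test as above). ASS1 over OTC, which sets the use of citrulline against its formation, was higher by 4.47, and the FPKM ratios were 42.4, 68.4 and 42.5 in salt, against 0.957, 1.56 and 7.18 in control. ASS1 over ASL1, the neighbouring steps from citrulline to arginine, differed by 5.01, with ratios of 62.6, 224 and 152 in salt, against 2.09, 2.78 and 9.33 in control. ArgD over ASL1 was 6.87, 26.7 and 9.41 in salt, against 5.03, 3.54 and 4.80 in control. The size of several differences rested on 1 library, while their directions did not. Without control replicate 3, the log2 difference was 6.41 for AOD2 over ArgJ (5.71 with all libraries), 5.18 for AOD2 over AAT, 5.32 for ASS1 over OTC and 5.66 for ASS1 over ASL1. ASS1 over OTC was at 3.87 without control replicate 1, and CPS2 over CPS1 at -2.90 without salt replicate 1 (-2.27 with all libraries).

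**Figure D4:**
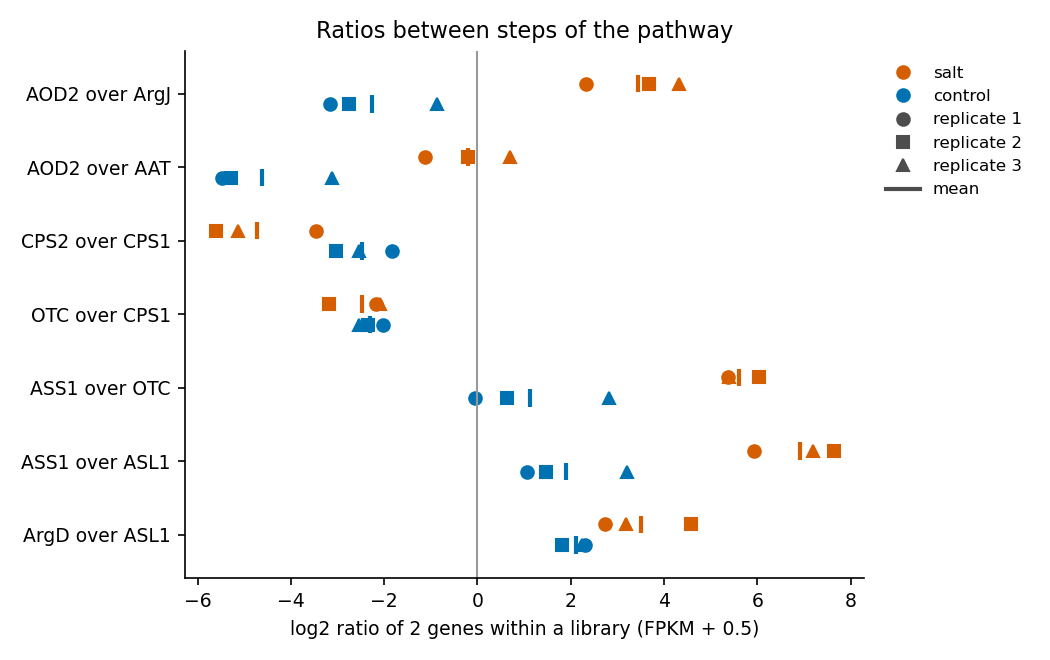
Log2 ratio of 2 genes of the pathway within a library, on FPKM + 0.5, with salt (upper row) and control (lower row) for each pair; symbols mark the replicate number and bars the mean of 3 libraries. OTC over CPS1 overlaps between the treatments, and the other 6 pairs do not.

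Of 11 further genes that supply glutamine and glutamate or use glutamate, arginine and ornithine, 10 were tested, and 3 rose and 5 fell (4 and 5 after median-ratio scaling). Over all genes tested, the shares were 13.6% and 34.2% as deposited, and 22.4% and 20.9% after that scaling. The study named them from the same libraries, so their directions are not independent evidence. The glutamine synthetase gene ClCG09G004580 fell, with 29.4, 20.2 and 35.4 FPKM in salt libraries, against 143, 120.4 and 129 FPKM in control libraries (log2 fold change -2.22, adjusted p = 0.000824 from limma). A second glutamine synthetase gene, ClCG03G008830, had 6.61, 2.23 and 13.9 FPKM in salt and 2.83, 1.47 and 1.19 FPKM in control, and it passed only after median-ratio scaling (adjusted p = 0.0699 as deposited and 0.0232 after it, limma). All 3 glutamate dehydrogenase genes fell, with log2 fold changes of -4.40 for ClCG04G005320, -2.70 for ClCG01G004910 and -1.43 for ClCG07G013590.

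Glutamate decarboxylase turns glutamate into GABA and so competes with ornithine synthesis for it. Its gene ClCG01G006890 rose, with 18.4, 20.3 and 4.86 FPKM in salt libraries, against 0.726, 0.236 and 0 FPKM in control libraries (adjusted p = 0.00203 from limma). ClCG01G006910 also rose, with 2.39, 7.38 and 2.32 FPKM in salt libraries and 0 in all 3 control libraries (adjusted p = 0.00290 from limma). ClCG00G006020 had at most 0.621 FPKM and was too weak to be tested. On the side of arginine use, the arginine decarboxylase gene ClCG06G014050 fell, with 3.99, 1.41 and 5.82 FPKM in salt, against 11.6, 13.1 and 14.3 FPKM in control (log2 fold change -1.83, adjusted p = 0.0139 from limma). Agmatine deiminase, the enzyme after it, rose (ClCG06G015290, 52.8, 57.8 and 66.9 FPKM in salt, against 31.7, 33.5 and 30.1 FPKM in control, adjusted p = 0.0110 from limma). Ornithine decarboxylase (ClCG08G013990) had 2.22, 1.91 and 9.95 FPKM in salt and 2.25, 2.42 and 1.94 FPKM in control, which did not pass (adjusted p = 0.413 from limma).

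The reference genes of the qRT-PCR, actin (ClCG02G000680) and an alpha-tubulin (ClCG02G024360), had log2 fold changes of -0.62 and -0.08 as deposited and of -0.04 and 0.49 after median-ratio scaling, and neither passed on either scale. Those of AOD2, ASS1, ArgJ and CPS2 were larger than these on both scales.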

How the data were processed

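The FPKM values (fragments scaled by gene length and library size) were calculated by the authors and used as deposited, with 1 column per library and no normalization between libraries. Reads with adapter or many unknown bases and reads of low quality were discarded before alignment to the Charleston Gray genome. The authors' methods name TopHat and HTSeq, and the submitters' processing notes name fastp, HISAT2 2.1.0, featureCounts and DESeq2. These sources name different tools, and which of them made the deposited values was not settled.

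Genes averaging 0.5 FPKM or more in the 6 libraries entered 1 limma fit (version 3.58.1, R 4.3.3) of log2(FPKM + 0.5) with a mean-variance trend and Benjamini-Hochberg adjustment over all 16638 genes. A gene was called at an adjusted p below 0.05. The whole fragments behind the values were found as the library totals and gene lengths that turn every value into a whole number (tolerance 0.002 fragments), and served for depth and for a limma voom alternative. Both steps were run on data simulated from the recovered totals and lengths, with no shift over all genes. The simulated replicates spread less than those of AOD2 and ASS1. That run therefore does not show how accurate the steps are for the deposited values. Ratios of 2 genes within a library were tested between treatments by exact permutation, two-sided. Figures were made with Python 3.11.15 and matplotlib 3.10.9.

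The members, the gene lists and the tests were chosen with earlier results of these data known. The rule for named genes took all 9 members, the glutamine, glutamate, arginine and ornithine genes that the study gives by identifier, 2 qRT-PCR reference genes, and the genes closest to a member in pattern. Alternatives covered the pseudocount, the filter, the scaling, the variance model, a replicate block and each library left out. Across genes, the deviations of salt and control libraries with the same replicate number from their group means were correlated with coefficients of 0.175, 0.105 and 0.128, whereas unlike numbers gave -0.108 to -0.0391. Since the deviations within a treatment sum to 0, coefficients above 0 for like numbers push those for unlike numbers below 0. The contrast is thus partly fixed by the calculation. A shared number may pair the libraries, but the labels and the methods do not say what it stands for. The fit without the block is the one reported. The qRT-PCR, amino acid and fluorescence measurements were not analysed here.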

Additional observations from a re-analysis of the deposited data

How the results depend on the processing

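AOD2 and ASS1 rose, and ArgJ and CPS2 fell, under all 17 alternatives tried (adjusted p of at most 0.0270, limma), with log2 fold changes of 3.20 to 4.84, 2.87 to 3.94, -2.07 to -1.25 and -3.77 to -2.70. The number of members that fell was 2 after median-ratio scaling and 2 to 6 without 1 library at a time (2 without control replicate 1 or 2, and 6 without salt replicate 3), against 4 as reported. AAT passed without salt replicate 3 (adjusted p = 0.0284, limma), and OTC passed there and with array weights (0.0437). ArgD turned to 0.25 after median-ratio scaling and to 0.25 with limma voom on recovered fragments in that scaling, where CPS1 was at -0.40 (adjusted p = 0.280) and ASL1 passed (0.0411). The log2 ratio of OTC over CPS1 ran from -0.37 to 0.17 without 1 library at a time. Over all genes tested, 3719, 3602 and 3687 genes rose after median-ratio scaling, after quantile normalization and in the voom fit, against 2266 as reported. In the same order 3472, 3809 and 3316 genes fell, against 5684 as reported. Without 1 library at a time 1624 to 2113 rose and 3705 to 5616 fell, the lowest number without control replicate 2. The pairing by replicate number, fitted as a replicate block, left 2 members risen and 4 fallen and changed no call of a member. The weakest values, of AOD2 in control replicates 1 and 2, rest on 24 and 29 fragments.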

Other observations

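Over the 6 libraries, AOD2 and ASS1 followed each other closely (Pearson's r of log2(FPKM + 0.5) = 0.977), as did AAT and CPS1 (r = 0.978). Since the libraries form 2 treatments, these values mainly reflect the difference between them and are given as a description. Among all genes tested, the closest to ASS1 was ClCG06G004440, a pentatricopeptide repeat protein gene (r = 0.999), and the closest to AOD2 was ClCG08G016310, described as a gibberellin-regulated protein (r = 0.998). The closest gene with a description to ASL1 was ClCG06G016180, of the geranylgeranyl reductase family (r = 0.999), and to CPS2 it was ClCG06G004810, described as a response regulator ARR2 (r = 0.995). Such likeness was common, since 395 genes had r above 0.95 with ASS1, 222 with AOD2 and 1592 with CPS2.

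Control replicate 3 stood nearest to the salt libraries in AOD2, ASS1, OTC and CPS1, and yet had the highest summed level of the leaf markers, 10341 FPKM, against 5758 and 5983 FPKM in control replicates 1 and 2. In ArgJ and ASL1 it lay close to the other control libraries.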
